A study of Homo sapiens with 6 samples.

Results

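The genes described here run the lysosome, its proton pump and autophagy, and were measured in RPMI-8402, a cultured line from human T-ALL (T cell leukaemia). They are 56 genes, found by symbol in the authors' deposited comparison table and joined by gene identifier to the raw counts, of 63677 identifiers in all. Because NEU1, TFE3, GLA and ATP6AP1 are listed more than once, the 56 symbols took 66 identifiers, and the extra identifiers held 0 counts in all samples. The 6 samples came from cells that stably expressed Cas9 and grew in tetracycline-free serum, and each carries the genotype label MYC_KO. DMSO, the solvent control, was given to 3 of them. Doxycycline, which turns on the guide RNAs against MYC in these cells, was given to the other 3, with a time point of 72 hours. The labels name no sample with doxycycline but no guides, so effects of the drug and of the guides cannot be told apart. Nothing in the labels says that replicates were separate cultures, and a p-value here then measures the spread among these samples, possibly a technical one.

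Lysosomes break down proteins, lipids and sugars with acid hydrolases. The acid comes from the vacuolar ATPase, a rotary pump whose V1 sector splits ATP and whose V0 sector carries protons through the membrane. In autophagy a double membrane, begun under the ULK1 kinase and decorated with lipid-bound ATG8 proteins, closes around cell material and fuses with the lysosome. TFEB, TFE3 and MITF are related transcription factors that bind the CLEAR element of many lysosomal promoters, and the core of that element, CACGTG, is the E-box that MYC and MAX also bind. MYC is a growth-promoting transcription factor in T-ALL. The contrast asks how transcript levels differ once guides against it are switched on.

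The shared E-box can be read in the promoters themselves. RefSeq promoter windows (GRCh38.p14, 250 bases before to 50 after the gene start) were matched by symbol for 46 of the 56 genes, and not for ATP6V0E1, ATP6V1A, ATP6V1B2, ATP6V1C1, ATP6V1H, CTSB, HEXA, LAMP2, PSAP or UVRAG. Searched on both strands, CACGTG stood in 10 of the 46 windows (21.7%), against 7.28% of 27305 promoters. The longer TCACGTGA, which contains it, stood in 6 of the 46 (13%), against 1.01% of all promoters. By role, TCACGTGA was found in 2 of 3 membrane proteins, 2 of 12 luminal proteins, 2 of 9 pump genes, 0 of 19 autophagy genes and 0 of 3 regulators. By call, CACGTG stood in 3 of 12 windows of genes called higher, 1 of 8 called lower and 6 of 24 not called. Stretches of the 6 windows with TCACGTGA are shown first, as genes that share a motif but not a call. Those of NEU1 and CTSD follow, which hold CACGTG alone and rose. ATG14 and ATP6V0B also hold CACGTG alone, were not called and are not shown. Capitals mark CACGTG, the sequence is on the strand of the gene, and a stretch has 30 bases where a GENCODE 29 transcript runs through it.
GAA, chr17:80101414-80101555, plus strand: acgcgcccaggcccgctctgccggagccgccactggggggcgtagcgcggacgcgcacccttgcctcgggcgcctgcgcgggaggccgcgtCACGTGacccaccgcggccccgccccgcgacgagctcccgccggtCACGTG
MCOLN1, chr19:7522492-7522623, plus strand: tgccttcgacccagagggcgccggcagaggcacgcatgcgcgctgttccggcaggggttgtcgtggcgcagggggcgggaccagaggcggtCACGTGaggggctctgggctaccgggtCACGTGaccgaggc
ATP6V1G1, chr9:114587620-114587745, plus strand: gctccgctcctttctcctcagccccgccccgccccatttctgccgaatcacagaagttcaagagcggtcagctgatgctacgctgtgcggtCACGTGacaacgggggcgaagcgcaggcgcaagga
LAMP1, chr13:113297120-113297238, plus strand: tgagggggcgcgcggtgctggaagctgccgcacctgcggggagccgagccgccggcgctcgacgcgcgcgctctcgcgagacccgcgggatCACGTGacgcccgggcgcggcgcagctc
CTSA, chr20:45891298-45891327, plus strand: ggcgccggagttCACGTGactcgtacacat
ATP6V0D1, chr16:67481199-67481228, minus strand: cccccttatggtCACGTGaggcgcttgcgc
NEU1, chr6:31862907-31863037, minus strand: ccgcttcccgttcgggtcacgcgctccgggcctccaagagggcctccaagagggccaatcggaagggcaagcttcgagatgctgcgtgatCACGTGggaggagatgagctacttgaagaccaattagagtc
CTSD, chr11:1763957-1763986, minus strand: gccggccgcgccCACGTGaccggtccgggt
GAA rose and ATP6V1G1 fell, while MCOLN1, LAMP1, CTSA and ATP6V0D1 were not called. With the trend in GC content and length removed (the offset fit, below), none of the 6 was called. Their log2 fold changes there ran from -0.10 for ATP6V0D1 to 0.08 for GAA, with ATP6V1G1 at 0.07. The 6 are therefore not shown to differ in response. A match is a description of letters in a window and not a site of binding.

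Total counts were 23121255 to 26214598 per sample. Levels are given as CPM, counts scaled to a common library total with TMM normalisation, and lists of 3 values are in the order of replicates 1, 2 and 3. MYC had 409, 422 and 407 CPM in DMSO against 459, 431 and 431 CPM in doxycycline and was not called (log2 fold change 0.09, SE 0.0489, edgeR adjusted p = 0.160). An edited transcript can still be counted, so the MYC level is no measure of editing. The T cell gene CD3E stood at 976 CPM on average in DMSO and TCF7 at 2979, with CD4 at 0.803 and CD8A at 0.182. The 24 T-ALL markers summed to 8152 to 8414 CPM in DMSO and 8517 to 8987 CPM in doxycycline, and 6 were under 1 CPM. Of 19 tested, 6 rose and 1 fell (all tested genes 13.8% and 15.5%). The offset fit called 4 higher and 0 lower (all genes 10.7% and 11.3%). Of 15 macrophage and monocyte markers 14 were under 1 CPM, and the list summed to 117 to 136 CPM in DMSO and 113 to 122 CPM in doxycycline, mostly AIF1. B cell markers summed to 202 to 207 CPM in DMSO and 219.8 to 235 CPM in doxycycline, mostly CR2 and BLK, with MS4A1 at 0. Stromal and epithelial markers summed to 41.0 to 41.2 CPM in DMSO and 49.1 to 54.9 CPM in doxycycline, mostly COL1A1, with EPCAM at 0. Myeloid progenitor and erythroid markers summed to 0.537 to 0.917 CPM in DMSO and 1.72 to 1.79 CPM in doxycycline. The part of these markers in the results was not tested.

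Fold changes of all tested genes went with GC content. The median log2 fold change was -0.10 under 45% GC, 0.00 from 45 to 55% and 0.13 at 55% and over. Results are therefore given also from an offset fit, in which the trend of each library with GC content and transcript length was removed. The median also went with level, at 0.19 under 1 CPM, 0.10 from 1 to 10 CPM and -0.05 at 10 CPM and over.

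In the doxycycline samples 12 of the 54 tested genes were called higher and 10 lower (edgeR quasi-likelihood test, Benjamini-Hochberg adjusted p under 0.05), and 32 were not called. Of the 12, TFEB and WIPI1 passed the filter on low counts only through the doxycycline samples, where they are high, so their calls are no support for a rise. Among the 52 genes whose DMSO samples all reached the filter's level, 10 rose and 10 fell. ATP6V0A1 rose most and ATG5 and ATG9B fell most among these. The called shares were 22.2% higher, with TFEB and WIPI1 counted, and 18.5% lower. Of all 15492 tested genes 13.8% and 15.5% were called, 29.3% together. At 10 CPM and over, the range of most of the 54, 14.0% of all tested genes rose and 24.2% fell. The median log2 fold change was 0.00 over the 54 and 0.00 over all tested genes. Groups did not overlap, with doxycycline higher, for 17 of the 54 (all genes 20.7%) and, with doxycycline lower, for 14 (all genes 21.0%). TFEB and WIPI1 are among the 17. The protease gene CTSL, with 0 or 1 counts per sample, and the kinase gene ULK2, with 1 to 5, were too low to test.

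The offset fit called 8 of the 54 higher and 2 lower. That is 18.5%, against 22.0% of 15036 genes (10.7% higher, 11.3% lower). Both fits called 8 genes alike: TFEB, NEU1, ATP6V0A1, ATG16L2, GABARAPL1 and WIPI1 higher, ATP6V1B2 and ATG9B lower. Both fits used the filter that TFEB and WIPI1 passed only through the doxycycline samples, so for them the match is no support. NPC2 and LAMP2 were called by the offset fit alone. With upper-quartile scaling 20 rose and 5 fell, and the same counts came from library size alone. Over all 15492 tested genes these scalings called 2871 higher and 1585 lower, and 2758 and 1606, against 2137 and 2408. Either DMSO replicate 1 or doxycycline replicate 3, when left out, left 5 falls. Over all genes 1842 of 15923 and 1754 of 15730 fell in these 2 fits.

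**Figure D1:**
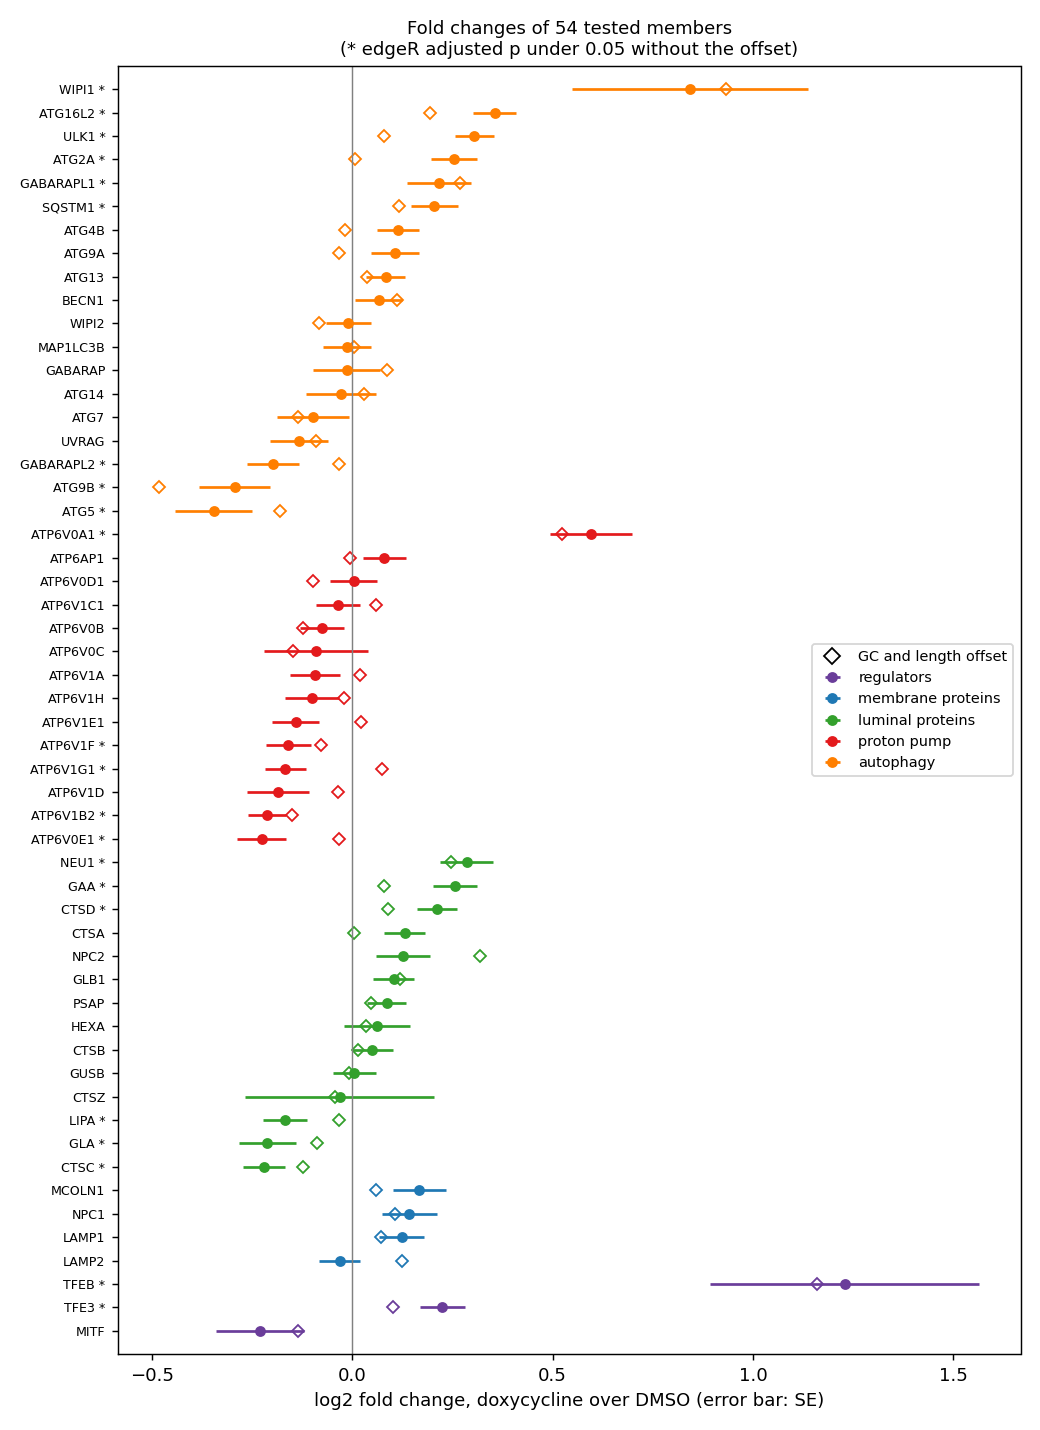
Log2 fold change of doxycycline over DMSO for the 54 tested genes by role, with filled points and SE bars for the fit without the offset and open diamonds for the offset fit; an asterisk marks an edgeR adjusted p under 0.05 without the offset. TFEB at 1.23, WIPI1 at 0.84 and ATP6V0A1 at 0.60 lie farthest right, and ATG2A moves from 0.25 to 0.01 in the offset fit.

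Among the 3 regulators TFE3 rose, MITF was not called, and TFEB is given as a description. TFE3 had the highest level per kilobase of longest transcript, 18.7 CPM per kilobase in DMSO, where MITF had 1.62 and TFEB 0.145. TFEB had 0.198, 0.537 and 0.393 CPM in DMSO and 0.911, 0.839 and 0.897 CPM in doxycycline. Every doxycycline sample was above every DMSO sample, on 5, 13 and 9 counts against 24, 22 and 24. Only 1 DMSO sample but all 3 doxycycline samples reached the 0.390 CPM that the filter asks of 3 samples, so TFEB was tested because it is high in doxycycline. The fit gave it a call (log2 fold change 1.23, SE 0.337, edgeR adjusted p = 0.00737; offset fit 1.16 (edgeR adjusted p = 0.0161)), which is no support for a rise and was lost without DMSO sample 1 (0.0676). It was not tested when at least 10 counts were required in every sample. Of all tested genes under 1 CPM, 8.58% rose and 0.809% fell.

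TFE3 had 68.1, 62.6 and 60.4 CPM in DMSO and 72.5, 73.2 and 77.7 CPM in doxycycline. The groups did not overlap (log2 fold change 0.22, SE 0.0564, edgeR adjusted p = 0.00383), and the offset fit gave 0.10 (edgeR adjusted p = 0.180), not called. MITF, best known from melanocytes, had 8.69, 7.06 and 7.60 CPM in DMSO and 6.19, 7.21 and 6.54 CPM in doxycycline. Its groups overlapped (log2 fold change -0.23, SE 0.109, edgeR adjusted p = 0.113).

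Of 14 tested luminal proteins 3 rose and 3 fell (all tested genes 13.8% and 15.5%), with a median log2 fold change of 0.07. The sialidase NEU1, the glycogen-cleaving glucosidase GAA and the aspartic protease CTSD rose. The dipeptidyl peptidase CTSC, the galactosidase GLA and the lipase LIPA fell. In the offset fit 2 of the 14 were called, NEU1 and NPC2, both higher.

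NEU1, which takes sialic acid off glycoproteins, had 29.8, 34.3 and 29.3 CPM in DMSO and 39.2, 36.9 and 37.9 CPM in doxycycline. All doxycycline samples were higher (log2 fold change 0.29, SE 0.0660, edgeR adjusted p = 0.00196), also in the offset fit at 0.25 (edgeR adjusted p = 0.00427). GAA had 78.9, 85.9 and 76.5 CPM in DMSO and 98.8, 92.0 and 97.6 CPM in doxycycline. The groups were apart (log2 fold change 0.26, SE 0.0546, edgeR adjusted p = 0.000943), but the offset fit gave 0.08 (edgeR adjusted p = 0.174). CTSD had 146, 159 and 151 CPM in DMSO and 174, 182 and 172 CPM in doxycycline. It too showed no overlap (log2 fold change 0.21, SE 0.0501, edgeR adjusted p = 0.00244), and 0.09 (edgeR adjusted p = 0.132) in the offset fit. Another gene on the same strand, AC068580.4, shares 41.7% of the exon bases of CTSD in GENCODE 29.

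CTSC, which matures the granule proteases of lymphocytes, had 101.4, 109 and 106 CPM in DMSO and 94.8, 89.6 and 87.8 CPM in doxycycline. All doxycycline samples were lower (log2 fold change -0.22, SE 0.0521, edgeR adjusted p = 0.00244), and the offset fit gave -0.12 (edgeR adjusted p = 0.108). GLA, lacking in Fabry disease, had 19.6, 20.5 and 19.3 CPM in DMSO and 16.4, 17.2 and 17.6 CPM in doxycycline. The groups did not overlap (log2 fold change -0.21, SE 0.0714, edgeR adjusted p = 0.0262), and the offset value was -0.09 (edgeR adjusted p = 0.348). By edgeR adjusted p its call was lost without DMSO sample 1 (0.0599), DMSO sample 2 (0.0684), doxycycline sample 1 (0.102) or doxycycline sample 2 (0.0560), and with upper-quartile scaling (adjusted p = 0.0857), library size alone (adjusted p = 0.0821), DESeq2 (adjusted p = 0.0676) or a pair of samples left out, DMSO 2 and doxycycline 1, (adjusted p = 0.151). LIPA, which splits cholesteryl esters, had 66.4, 64.3 and 65.2 CPM in DMSO and 57.6, 60.9 and 55.9 CPM in doxycycline. Doxycycline samples were again all lower (log2 fold change -0.17, SE 0.0544, edgeR adjusted p = 0.0215), with -0.03 (edgeR adjusted p = 0.632) in the offset fit, and the call was lost without DMSO sample 1 (0.0816), doxycycline sample 1 (0.0656) or doxycycline sample 3 (0.123), and with upper-quartile scaling (adjusted p = 0.101) or library size alone (adjusted p = 0.0942).

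**Figure D2:**
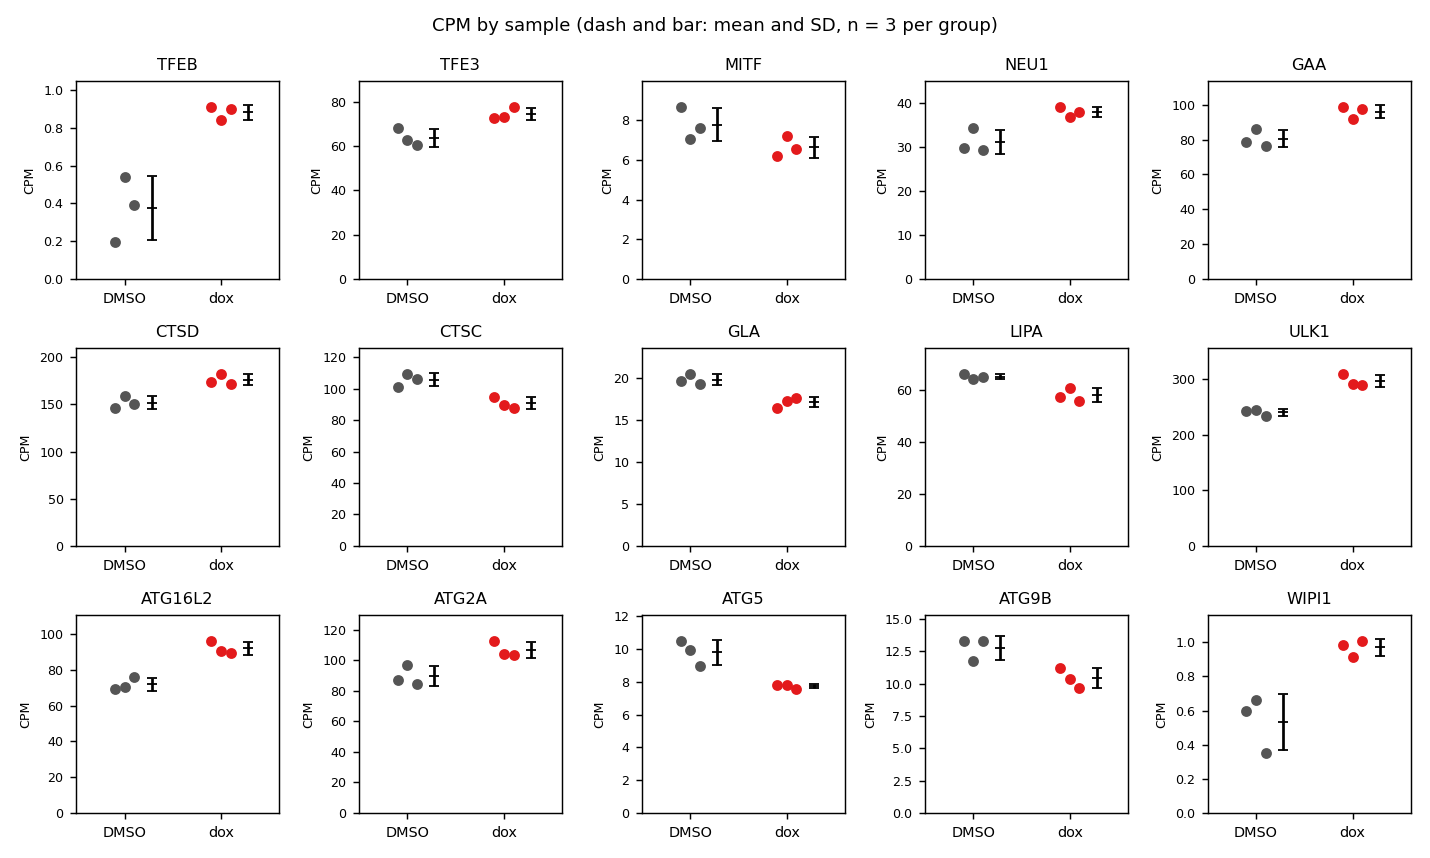
CPM in each sample (grey DMSO, red doxycycline) for the 3 regulators and 12 called genes of the lysosome and autophagy, each on its own axis from 0, with mean and SD (n = 3) drawn beside the points. MITF overlaps between the groups. The other 14 genes, all of them called, do not overlap, which adds no support to their calls. Over all tested genes the groups did not overlap for 20.7% with doxycycline higher and for 21.0% with doxycycline lower.

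The 8 luminal proteins that were not called had log2 fold changes from -0.03 for CTSZ to 0.13 for CTSA. CTSA, the protective protein of NEU1, had 109 ± 3.41 CPM with DMSO against 119 ± 5.28 CPM with doxycycline (SD, n = 3 each). Its groups did not overlap (edgeR adjusted p = 0.0540). PSAP, the precursor of the saposins that offer lipids to hydrolases, had the highest level per length of the 56 genes, 227 CPM per kilobase in DMSO, ahead of ATP6V1F at 177. Its groups did not overlap either, at 636, 672 and 644 CPM and 685, 685 and 702 CPM (log2 fold change 0.09, SE 0.0489, edgeR adjusted p = 0.191). NPC2, which hands cholesterol to NPC1, had 30.2 ± 2.86 CPM with DMSO against 32.9 ± 0.899 CPM with doxycycline (SD, n = 3 each) and overlapped (edgeR adjusted p = 0.165). In the offset fit NPC2 rose, at 0.32 (edgeR adjusted p = 0.000754). CTSB, CTSZ, GLB1, GUSB and HEXA overlapped between groups. Summed over the 15 luminal genes the level was 1466 to 1560.0 CPM in DMSO and 1582 to 1599 CPM in doxycycline.

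None of the 4 membrane proteins was called. The calcium channel MCOLN1 had 25.5 ± 1.48 CPM with DMSO against 28.6 ± 1.22 CPM with doxycycline (SD, n = 3 each), with no overlap (log2 fold change 0.17, SE 0.0664, edgeR adjusted p = 0.0592). The cholesterol exporter NPC1, at 0.14, the coat protein LAMP1, at 0.12, and LAMP2, at -0.03, overlapped. With upper-quartile scaling MCOLN1, LAMP1 and NPC1 passed as higher (edgeR adjusted p = 0.0158, 0.0233 and 0.0389). LAMP2, a gene of 37.7% GC that serves fusion with autophagosomes, was higher in the offset fit at 0.125 (edgeR adjusted p = 0.0340).

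Of the 14 proton pump genes 4 fell and 1 rose, with a median log2 fold change of -0.10. Over all tested genes 15.5% fell and 13.8% rose, and at 10 CPM and over 24.2% fell and 14.0% rose. ATP6V1B2, ATP6V1F and ATP6V1G1 of the V1 sector and ATP6V0E1 of the V0 sector fell. ATP6V0A1, an a subunit that forms the proton path of V0, rose. All 8 V1 genes had values below 0, from -0.21 for ATP6V1B2 to -0.03 for ATP6V1C1, with a median of -0.15. This was 7 of 8 when scaled by upper quartile or by library size, and 4 of 8 in the offset fit, where the V1 median was 0.00. The median GC content of the V1 genes was 43.6%. All tested genes under 45% GC had a median log2 fold change of -0.10, and those at 10 CPM and over -0.05. The 5 V0 genes ranged from -0.23 to 0.60. Without doxycycline replicate 3, 3 pump genes were called, and without doxycycline replicate 1 the pump median was -0.16.

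ATP6V0A1 had 5.55, 6.24 and 6.59 CPM in DMSO and 8.92, 9.19 and 9.64 CPM in doxycycline. The groups were far apart for their spread, a 1.51-fold rise (log2 fold change 0.60, SE 0.102, edgeR adjusted p = 0.000116), and the offset fit gave 0.52 (edgeR adjusted p = 0.000707). ATP6V1B2, the B subunit that helps to bind ATP, had 166, 159.9 and 164 CPM in DMSO and 143, 140.3 and 139 CPM in doxycycline. All doxycycline samples were lower (log2 fold change -0.21, SE 0.0475, edgeR adjusted p = 0.00146), and the fall passed in the offset fit at -0.15 (edgeR adjusted p = 0.0118). It was the sole V1 gene called there.

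ATP6V0E1, the small e subunit, had 40.2, 43.0 and 44.6 CPM in DMSO and 37.7, 37.0 and 34.5 CPM in doxycycline. The groups did not overlap (log2 fold change -0.23, SE 0.0617, edgeR adjusted p = 0.00725), the offset value was -0.03 (edgeR adjusted p = 0.720), and the call was lost without doxycycline sample 3 (0.0616). ATP6V1G1, of the peripheral stalk, had 97.3, 90.2 and 92.1 CPM in DMSO and 82.4, 83.0 and 83.7 CPM in doxycycline. Doxycycline samples were all lower (log2 fold change -0.17, SE 0.0511, edgeR adjusted p = 0.0153), yet the offset fit turned the sign to 0.07 (edgeR adjusted p = 0.229), and the call was lost without DMSO sample 1 (0.1000) or doxycycline sample 1 (0.05001), and with upper-quartile scaling (adjusted p = 0.0852) or library size alone (adjusted p = 0.0794). ATP6V1F, of the central stalk, had 119.7, 132 and 126 CPM in DMSO and 119.7, 114 and 104 CPM in doxycycline. Its lowest DMSO and highest doxycycline samples all but touched (log2 fold change -0.16, SE 0.0556, edgeR adjusted p = 0.0315), the offset value was -0.08 (edgeR adjusted p = 0.225), and the call was lost without DMSO sample 2 (0.101), doxycycline sample 2 (0.0552) or doxycycline sample 3 (0.241), and with upper-quartile scaling (adjusted p = 0.138) or library size alone (adjusted p = 0.110).

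**Figure D3:**
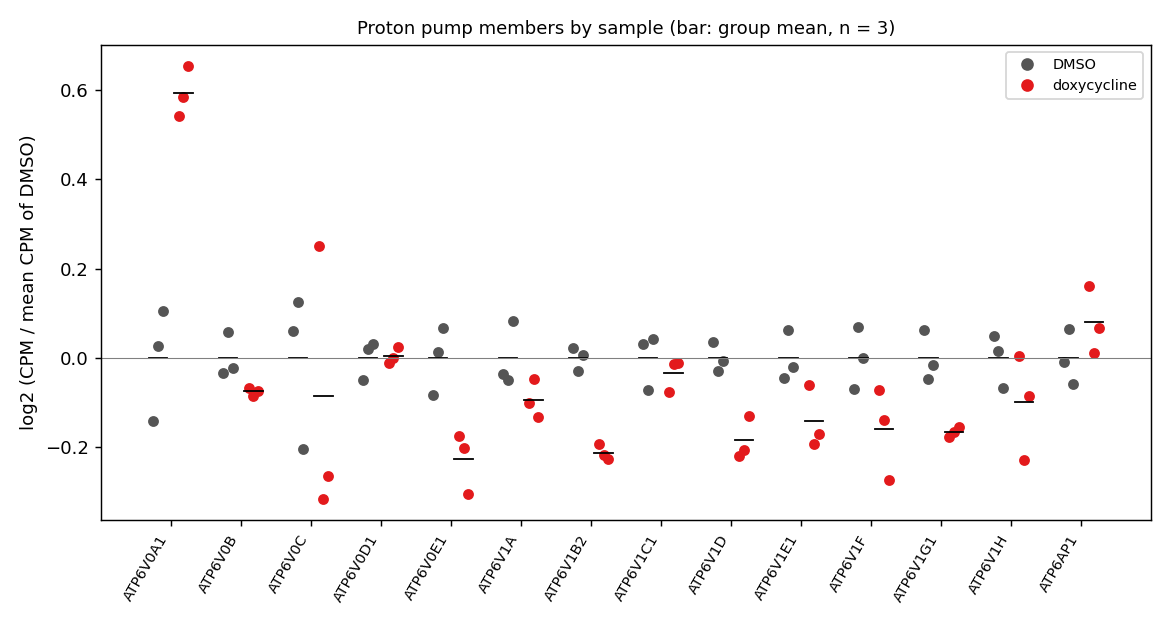
Level of each of the 14 proton pump genes in each sample, as log2 of CPM over the mean CPM of DMSO (grey DMSO, red doxycycline, n = 3 each). ATP6V0A1 is the one gene with all doxycycline samples above DMSO (all tested genes 20.7%). All doxycycline samples lie below DMSO for 7 genes (all tested genes 21.0%).

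The 9 pump genes that were not called had log2 fold changes from -0.19 for ATP6V1D to 0.08 for the accessory protein gene ATP6AP1. ATP6V1D (edgeR adjusted p = 0.0730), ATP6V1E1 (0.0721) and ATP6V0B (0.329) were lower in every doxycycline sample than in any DMSO sample. The catalytic subunit gene ATP6V1A, ATP6V1C1, ATP6V1H, ATP6V0C, ATP6V0D1 and ATP6AP1 overlapped. The count of ATP6V0C, the main subunit of the proton-carrying ring, is uncertain, since another gene shares 57.5% of its exon bases on the same strand. Summed over the 14 genes the pump had 803 to 813 CPM in DMSO and 737 to 768 CPM in doxycycline.

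Several pump subunits have paralogues, singled out here after their values were seen. ATP6V0A1 made 14.2 ± 1.35% in DMSO and 20.0 ± 0.249% in doxycycline of a subunit transcripts per kilobase, and ATP6V0A2 83.1 ± 0.664% in DMSO and 74.3 ± 1.07% in doxycycline (SD, n = 3 each). ATP6V0A2 itself was not called (log2 fold change -0.06, edgeR adjusted p = 0.5001). ATP6V0A4, an a isoform best known from kidney, had 0.305 CPM on average in DMSO and 0.897 in doxycycline. It was tested only because its doxycycline samples passed the filter on low counts, which none of its DMSO samples did, so its call (log2 fold change 1.54, SE 0.348, edgeR adjusted p = 0.00163) is no support for a rise. TCIRG1, the a isoform of osteoclasts, also tested through its doxycycline samples, was not called (0.89, edgeR adjusted p = 0.0617). ATP6V1B1, the paralogue of ATP6V1B2, had 1.39, 1.49 and 1.31 CPM in DMSO and 2.24, 2.36 and 2.35 CPM in doxycycline and rose (log2 fold change 0.73, SE 0.187, edgeR adjusted p = 0.00453). Its share of B subunit transcripts per kilobase was 2.96 ± 0.227% in DMSO and 5.54 ± 0.214% in doxycycline (SD, n = 3 each). ATP6V1C2 rose by 0.81 (edgeR adjusted p = 0.0273) to 1.10 CPM. Of all tested genes from 1 to 10 CPM, the range of ATP6V1B1, 16.1% rose and 4.13% fell. Under 1 CPM, the range of ATP6V1C2 by its mean over both groups, 8.58% rose and 0.809% fell.

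Of 19 tested autophagy genes 6 were called higher and 3 lower (all tested genes 13.8% and 15.5%), with a median log2 fold change of 0.07. The initiating kinase ULK1, the lipid transfer protein ATG2A, ATG16L2, a relative of the lipidation factor ATG16L1, the ATG8 protein GABARAPL1 and the cargo receptor SQSTM1 rose, and the lipid-binding WIPI1, the sixth, was called on low counts. ATG5, part of the enzyme that joins ATG8 proteins to lipid, ATG9B, of the lipid scramblase family, and the ATG8 protein GABARAPL2 fell. In the offset fit ATG16L2, GABARAPL1 and WIPI1 were called higher and ATG9B lower. Leaving out DMSO replicate 1 or doxycycline replicate 3 left 5 of the 9 called. Summed over the 20 genes the level was 1034 to 1101 CPM in DMSO and 1152 to 1209 CPM in doxycycline, with ULK1 the largest part.

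ULK1 had 242, 244 and 233 CPM in DMSO and 309, 291 and 289 CPM in doxycycline. All doxycycline samples were well above DMSO (log2 fold change 0.30, SE 0.0488, edgeR adjusted p = 5.46e-05). ULK1 has 64.2% GC, and the offset fit gave 0.08 (edgeR adjusted p = 0.1496). ATG13, its partner in the kinase complex, had 142 ± 4.07 CPM with DMSO against 151 ± 3.41 CPM with doxycycline (SD, n = 3 each) and was not called (edgeR adjusted p = 0.199). ATG16L2 had 69.5, 70.5 and 76.2 CPM in DMSO and 96.3, 90.5 and 89.6 CPM in doxycycline. The groups were apart (log2 fold change 0.36, SE 0.0541, edgeR adjusted p = 3.15e-05), and the rise also passed in the offset fit at 0.20 (edgeR adjusted p = 0.00489). FCHSD2 shares 7.90% of its exon bases on the other strand, and the strand setting of the counting is not given in the sources used here.

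ATG2A, which moves lipid into the growing membrane, had 86.9, 96.9 and 84.7 CPM in DMSO and 113, 104 and 104 CPM in doxycycline. The groups did not overlap (log2 fold change 0.25, SE 0.0565, edgeR adjusted p = 0.00140), and the offset fit gave 0.01 (edgeR adjusted p = 0.931). WIPI1, which reads the phosphoinositide made at the forming membrane, had 0.595, 0.661 and 0.349 CPM in DMSO and 0.987, 0.915 and 1.01 CPM in doxycycline. Its counts were 8 to 16 in DMSO and 24 to 27 in doxycycline, and the 3 samples the filter asks for were reached only with the doxycycline group. Its call (log2 fold change 0.84, SE 0.296, edgeR adjusted p = 0.0325; offset fit 0.93 (edgeR adjusted p = 0.0250)) is therefore no support for a rise. It was lost without DMSO sample 1 (0.0628), DMSO sample 3 (0.165), doxycycline sample 1 (0.0741), doxycycline sample 2 (0.0554) or doxycycline sample 3 (0.0879), and with DESeq2 (adjusted p = 0.154) or a pair of samples left out, DMSO 2 and doxycycline 1, (adjusted p = 0.0621). ARSG shares 24.3% of the exon bases of WIPI1 on the other strand. The abundant relative WIPI2 had 115 ± 9.23 CPM with DMSO against 114 ± 3.68 CPM with doxycycline (SD, n = 3 each) and overlapped (log2 fold change -0.01, SE 0.0555, edgeR adjusted p = 0.920).

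ATG5 had 10.5, 9.92 and 8.99 CPM in DMSO and 7.78, 7.82 and 7.59 CPM in doxycycline. The doxycycline samples lay close together below DMSO (log2 fold change -0.35, SE 0.0956, edgeR adjusted p = 0.00785), the offset value was -0.18 (edgeR adjusted p = 0.170), and the call was lost without DMSO sample 1 (0.0540). ATG9B had 13.3, 11.7 and 13.3 CPM in DMSO and 11.2, 10.4 and 9.68 CPM in doxycycline. All doxycycline samples were lower (log2 fold change -0.29, SE 0.0889, edgeR adjusted p = 0.0142), and the fall was larger in the offset fit, at -0.48 (edgeR adjusted p = 0.000504). It was lost without DMSO sample 1 (0.0689) or doxycycline sample 3 (0.0839). NOS3 shares 12.3% of the exon bases of ATG9B on the other strand. ATG9A, the relative of ATG9B, had 44.4 ± 3.05 CPM with DMSO against 47.8 ± 0.669 CPM with doxycycline (SD, n = 3 each) and overlapped (edgeR adjusted p = 0.191).

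Within the ATG8 family GABARAPL1 rose and GABARAPL2 fell. GABARAPL1 had 13.6 ± 0.726 CPM with DMSO against 15.7 ± 0.997 CPM with doxycycline (SD, n = 3 each), without overlap (log2 fold change 0.22, SE 0.0804, edgeR adjusted p = 0.0436), and 0.27 (edgeR adjusted p = 0.0130) in the offset fit. Its call was lost without DMSO sample 1 (0.187), DMSO sample 3 (0.0512), doxycycline sample 2 (0.0601) or doxycycline sample 3 (0.214), and with DESeq2 (adjusted p = 0.151), no filter on low counts (adjusted p = 0.101) or the replicate block (adjusted p = 0.0550). GABARAPL2 had 33.1 ± 1.43 CPM with DMSO against 28.9 ± 1.45 CPM with doxycycline (SD, n = 3 each), also without overlap (log2 fold change -0.20, SE 0.0640, edgeR adjusted p = 0.0212), and -0.03 (edgeR adjusted p = 0.722) in the offset fit. Its call was lost without DMSO sample 2 (0.0656) or doxycycline sample 3 (0.134), and with upper-quartile scaling (adjusted p = 0.0796), library size alone (adjusted p = 0.0724) or a pair of samples left out, DMSO 2 and doxycycline 1, (adjusted p = 0.0752). MAP1LC3B and GABARAP, at -0.01 each, overlapped. Per kilobase GABARAPL2 made 34.5 ± 0.918% in DMSO and 31.04 ± 1.13% in doxycycline of ATG8 transcripts, and GABARAPL1 10.0 ± 0.499% in DMSO and 12.01 ± 1.07% in doxycycline (SD, n = 3 each).

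SQSTM1, the receptor that carries ubiquitin-tagged cargo, had 59.9 ± 4.50 CPM with DMSO against 69.1 ± 2.51 CPM with doxycycline (SD, n = 3 each). The groups did not overlap (log2 fold change 0.21, SE 0.0585, edgeR adjusted p = 0.00961), the offset value was 0.12 (edgeR adjusted p = 0.0827), and the call was lost without DMSO sample 3 (0.0729) or doxycycline sample 1 (0.0531). MRNIP shares 20.7% of its exon bases on the other strand. The 3 genes of the lipid kinase complex were not called, with BECN1 at 0.07, ATG14 at -0.03 and UVRAG at -0.13. The protease gene ATG4B had 0.11 (edgeR adjusted p = 0.103) and ATG7, the E1-like enzyme, -0.10.

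Side by side, 21.4% of luminal genes were called higher and 21.4% lower, 7.14% and 28.6% of pump genes, and 31.6% and 15.8% of autophagy genes. The shares over all tested genes were 13.8% and 15.5%, and at 10 CPM and over 14.0% and 24.2%. The autophagy share called higher counts WIPI1, whose call is no support for a rise. No test was made of the difference between roles. Their median GC content was 52.2%, 47.3% and 50.8%, and in the offset fit their medians were 0.02, -0.03 and 0.01, against 0.01 over all genes. Of the 13 genes under 45% GC, 7 fell and 0 rose, where 27.7% of all genes in that range fell and 3.67% rose. Of the 17 at 55% GC and over, 8 were called higher, TFEB among them, and 1, ATG9B, lower, where 29.9% rose and 4.41% fell. Spearman's correlation of fold change with GC content was 0.58 over the 54 genes and 0.41 over 15036, as a description, since genes of the same libraries are not replicates. The part of GC content in these results was not tested, and the offset would also remove a change in the cells that goes with GC content.

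**Figure D4:**
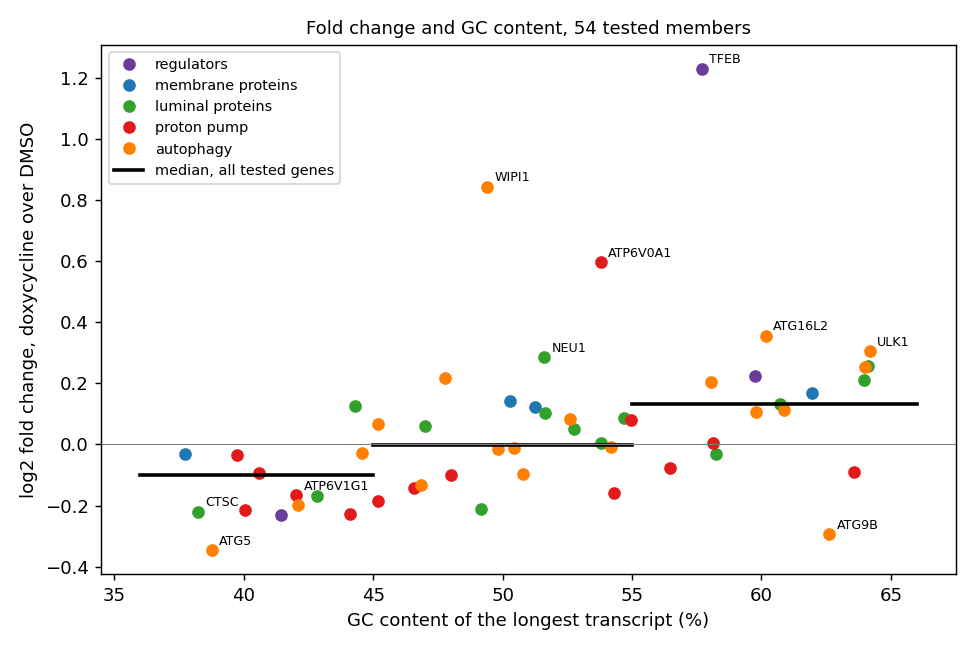
Log2 fold change without the offset against GC content of the longest transcript for the 54 tested genes, coloured by role, with black lines at the median of all tested genes under 45%, from 45 to 55% and at 55% and over. Of the 13 genes under 45% GC 7 fell, of the 17 at 55% and over 8 were called higher, and TFEB, WIPI1, ATP6V0A1 and ATG9B lie farthest from the lines.

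Further genes of these pathways came from lists outside the 56. Their counts stand beside 13.8% higher and 15.5% lower over all tested genes, and 10.7% and 11.3% in the offset fit. Of 32 other lysosomal enzymes 7 rose and 1 fell, with a median log2 fold change of 0.10; the offset fit called 7 higher and 2 lower, with a median of 0.07. IDUA, which breaks down heparan and dermatan sulphate, rose by 0.46 (edgeR adjusted p = 1.33e-06), from 59.8 ± 3.27 CPM with DMSO to 82.3 ± 2.36 CPM with doxycycline (SD, n = 3 each). ARSA, a sulphatase of sulphatides, rose by 0.43 (edgeR adjusted p = 1.30e-05) and CTSW, a lymphocyte cathepsin, by 0.33 (0.00366). All 3 also rose in the offset fit, by 0.29, 0.29 and 0.31. Of 30 other membrane and sorting proteins 8 rose and 3 fell, with a median of 0.01; the offset fit called 5 higher and 5 lower, with a median of 0.02. LAPTM5, a lysosomal protein of blood cells, rose by 0.44 (edgeR adjusted p = 2.95e-06), the chloride-proton exchanger CLCN7 by 0.35 (4.99e-05) and SIDT2 by 0.40 (7.61e-05). Their offset values were 0.49, 0.13 and 0.28.

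Of 18 other pump subunits and assembly factors 5 were called higher and 2 lower, with a median of -0.02; the offset fit called 4 higher and 0 lower, with a median of 0.09, so the sign of the median turned. ATP6V0A4 and ATP6V1B1 were among the higher. ATP6AP1L fell by 0.28 (edgeR adjusted p = 0.0127), and was not called in the offset fit, at -0.14 (edgeR adjusted p = 0.214). Of 41 other autophagy genes 7 rose and 6 fell, with a median of -0.02; the offset fit called 6 higher and 3 lower, with a median of 0.01. TP53INP2 and TP53INP1, which bind ATG8 proteins, rose by 0.56 and 0.55 (edgeR adjusted p = 3.72e-06 and 1.13e-05). ATG3, which hands ATG8 proteins to lipid, had 76.2, 75.0 and 75.0 CPM in DMSO and 59.2, 57.5 and 58.8 CPM in doxycycline and fell (log2 fold change -0.37, SE 0.0519, edgeR adjusted p = 1.28e-05), also in the offset fit at -0.21 (edgeR adjusted p = 0.00232). Of 26 genes of mTORC1, the kinase complex that restrains TFEB and ULK1, and of nutrient sensing 3 rose and 7 fell, with a median of -0.04; the offset fit called 1 higher and 4 lower, with a median of -0.08. SESN3, an inhibitor of mTORC1 signalling, rose by 0.60 (edgeR adjusted p = 0.000507), and by 0.65 in the offset fit. TSC2, another inhibitor, rose by 0.25 (edgeR adjusted p = 0.000801; offset fit 0.04), and LAMTOR5, of the Ragulator scaffold, fell by 0.27 (edgeR adjusted p = 0.00112; offset fit -0.14).

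The authors' deposited table, a DESeq2 comparison, gave an adjusted p-value to 52 of the 56 genes and called 9 of them higher and 9 lower at 0.05. It called 25.4% of all genes it adjusted (9.79% higher, 15.6% lower). All 18 were called by edgeR in the same direction, and 4 were called by edgeR alone: TFEB, WIPI1, GLA and GABARAPL1. TFEB and WIPI1 had no adjusted p-value in the authors' table, so it could not call them. Lower transcript levels from fewer cells of a state and from less RNA per cell cannot be told apart in these bulk samples.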

How the data were processed

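RNA of 6 samples was sequenced in pairs of 100-base reads on strand-specific libraries, per the labels' protocols. The authors deposited raw counts per gene. STAR 2.5.2a, featureCounts, DESeq2 1.12.4 and hg19 are named, without roles, per the submitters' processing notes. Annotation and strand setting are not given in the sources used here. Per gene, the authors' deposited DESeq2 table holds a mean normalised signal, the log2 fold change and its standard error, a test score, and p-values.

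Gene filtering used filterByExpr and scaling used TMM. The edgeR quasi-likelihood test (version 4.0.16 under R 4.3.3) had treatment as its one term, and p-values were adjusted over all 15492 tested genes. SE is the size of the log2 fold change over the square root of F. A p given in brackets after a left-out sample is an edgeR adjusted p. The offset fit used GC content and length of the longest GENCODE 29 transcript (natural splines, 5 degrees of freedom) for 15036 genes. GENCODE 29 and RefSeq are on GRCh38, unlike the counts, so they gave gene properties only. Tested on simulated counts for this comparison (15286 genes), the script called 82% of genes changed 1.25-fold and 100% of those changed 1.5-fold, and called 12 unchanged genes. The changed genes were drawn only from genes above a set level, dispersion followed its trend with level, and no GC trend was put in. These numbers therefore do not cover recovery of low-count genes such as TFEB and WIPI1, or calls that go with GC content.

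Values per sample are given for MYC, the regulators and up to 6 called genes of largest change in each of 3 groups (luminal and membrane, pump, autophagy; the pump had 5), and from each further list the 3 called genes of smallest p are named. Values per sample of PSAP, ATP6V1B1 and ATG3 were added after they were seen. The genes, lists and tests were chosen with earlier results of these data known. Alternatives were other scalings and filters, DESeq2 1.42.0, a replicate block, the offset, and samples left out.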

Additional observations from a re-analysis of the deposited data

How the results depend on the processing

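Of 22 called genes 4 (NEU1, ATP6V0A1, ATP6V1B2 and ATG16L2) kept their direction and call in all 15 alternatives run. Over all genes 4545 were called, and 3396 to 4366 with 1 sample left out. Upper-quartile scaling gave 20 rises and 5 falls, 3 called pump genes, a luminal median of 0.122 and a pump median of -0.0492. Library size alone gave 20 rises and 5 falls, 3 called pump genes, and medians of 0.117 and -0.0539. Over all genes these scalings called 2871 higher and 1585 lower, and 2758 and 1606, against 2137 and 2408. The offset fit gave 2 falls, with 2 luminal, 2 pump and 4 autophagy genes called, and medians of 0.0240, -0.0265 and 0.00710. LAMP2 turned to 0.125 and ATP6V1G1 to 0.0747. The offset with the replicate block gave 2 falls, 2 luminal, 2 pump and 4 autophagy calls, medians of 0.0233, -0.0269 and 0.00840, LAMP2 at 0.125 and ATP6V1G1 at 0.0756. Leaving out 1 sample at a time gave 9 to 17 rises and 5 to 10 falls, 4 to 7 luminal, 3 to 5 pump and 5 to 9 autophagy calls, and medians of 0.0454 to 0.0895, -0.158 to -0.0907 and 0.0469 to 0.0937. Omitting a DMSO and a doxycycline sample together (numbers 2 and 1) gave a pump median of -0.151; this pair was set with earlier results known. The cause of these shifts was not tested.

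The labels do not say whether replicate numbers pair the samples. Same-numbered deviations from the group means correlated at -0.06, -0.23 and 0.09 for numbers 1, 2 and 3. DMSO 2 with doxycycline 1 gave 0.32, and DMSO 3 with doxycycline 2 gave 0.24, so not every sample correlated best with its own number. Deviations from a mean of 3 samples depend on each other, so these correlations cannot decide whether the samples are paired. The replicate block gave 4206 calls over all genes, 11 rises and 10 falls, GABARAPL1 being the call lost. DESeq2 called 9 higher and 9 lower. TFEB and WIPI1 rest on 5 to 27 counts per sample, which limits the precision of their fold changes.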
